A study of Homo sapiens with 4 samples.

Results

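The transcripts of 10 genes of the integrated stress response and of serine and one-carbon metabolism were followed after knockdown of SLFN5 in a renal carcinoma line. They were chosen by name, as the rows of the deposited table named ATF4, DDIT3, TRIB3, ASNS, CHAC1, PSAT1, PHGDH, PSPH, SHMT2 or MTHFD2, which is 10 of the 57659 genes listed. Each name matched a single row. The line is 786-0, an established human line from a renal cell carcinoma. It was transfected with control siRNA in 2 libraries (Control 1 and Control 2) or with siRNA against SLFN5 in the other 2 (SLFN5 siRNA 1 and SLFN5 siRNA 2). SLFN5 is a member of the Schlafen family, and the series title links it to motility and invasion of such cells. Every group shares the cell line and a transfection, and no untransfected cells, siRNA sequence or time after transfection is given in the labels used here. The design text speaks of triplicates, and 4 libraries are described here. Whether libraries of the same group are separate cultures is not in the labels, so p-values reflect the spread between these libraries only, which may be technical. The limma fit takes much of each gene's spread from genes of like level, with 9.6 prior against 2 residual degrees of freedom.

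The integrated stress response is a common route by which cells react to amino acid shortage, unfolded proteins, haem deficiency or double-stranded RNA. Kinases phosphorylate the initiation factor eIF2, general translation falls, and translation of the ATF4 message rises through upstream reading frames in its leader, so ATF4 protein can change without its transcript. ATF4 then pairs with C/EBP-family proteins on composite sites and drives genes for stress output and for amino acid synthesis and import. Serine is made from a glycolytic intermediate by PHGDH, PSAT1 and PSPH in that order, and the mitochondrial enzymes SHMT2 and MTHFD2 then pass its carbon into the folate pool that serves purine and thymidylate synthesis.

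Promoter stretches are shown for ASNS and CHAC1, which hold the core of the composite site, and for TRIB3 and PSAT1, which had the largest changes of the set and hold no match in the windows examined. Sequences are from RefSeq, build GRCh38.p14, 5′ to 3′ on the gene's strand, 100 bases each, with the match to the core in capitals. The authors' build was hg19, and these coordinates apply to GRCh38 only. The ASNS stretch is chr7:97872423-97872522 (minus strand), with the core at position -68 from the start site. The CHAC1 stretch is chr15:40953221-40953320 (plus strand), with the core, on the opposite strand, at position -209. The TRIB3 stretch, chr20:381195-381294, and the PSAT1 stretch, chr9:78297025-78297124, are both on the plus strand and end at the base before the start.
ASNS: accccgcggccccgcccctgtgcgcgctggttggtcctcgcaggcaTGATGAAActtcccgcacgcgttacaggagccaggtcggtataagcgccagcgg
CHAC1: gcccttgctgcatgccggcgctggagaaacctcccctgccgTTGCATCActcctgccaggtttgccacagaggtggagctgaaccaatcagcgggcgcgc
TRIB3: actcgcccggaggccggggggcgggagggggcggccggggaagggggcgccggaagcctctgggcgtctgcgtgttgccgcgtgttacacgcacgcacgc
PSAT1: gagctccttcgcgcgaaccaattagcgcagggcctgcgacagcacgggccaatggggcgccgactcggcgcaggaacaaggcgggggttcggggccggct

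RefSeq windows were matched for 8 of the 10 genes, and the 250 bases before each start were searched on both strands. The core TGATGNAA stood in 1 of the 2 ASNS windows and in the CHAC1 window, against 3.15% of all 34943 promoter windows of that length. The E-box CACGTG, which MYC-family and related factors bind, stood in both overlapping ATF4 windows, against 6.32% of all. The antioxidant element core TGACNNNGC (10.9% of all) and the endoplasmic reticulum stress element (0.0744% of all) matched in no window of these genes. A match is a description of letters and not a bound site, and a missing match says only that the letters are not in that window.

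Sequencing depth differed between libraries. The counts recovered from the deposited values summed to 31905328 and 13187517 in the controls and to 17117659 and 14700669 after SLFN5 siRNA. The values below are equalised counts, in which the authors' adjustment has brought libraries to a common size. The siRNA target SLFN5 stood at 420 and 353 in the controls and at 167 and 118 after SLFN5 siRNA (log2 change -1.45, SE 0.21, limma adjusted p = 0.000524). All 8 markers fixed for a renal carcinoma line, among them PAX8, EPAS1, CA12, KRT8, KRT18, VIM and CDH6, passed the filter. Their summed value was 122140 to 130692 in the controls and 105536 to 108872 after SLFN5 siRNA, most of it from VIM, which fell by 0.46 on the log2 scale. EPAS1, CA12 and CDH6 rose by 0.55, 0.53 and 1.42. None of 5 leukocyte or 5 endothelial markers passed, with summed values of at most 8.40 and 19.4, and CD3E and PECAM1 were at 0. Of 5 fibroblast markers 3 passed, and their list summed to 96.1 to 163 in the controls and 73.9 to 105 after SLFN5 siRNA. The part of the fibroblast markers in the results below was not tested. In bulk RNA, fewer cells of a type and less RNA per cell cannot be told apart.

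Of the 9 genes tested, 4 were lower after SLFN5 siRNA, 1 was higher and 4 did not pass. The serine enzyme PSAT1, the mitochondrial enzymes SHMT2 and MTHFD2 and the glutathione-degrading enzyme CHAC1 fell, the pseudokinase TRIB3 rose, and ATF4, DDIT3, ASNS and PSPH did not pass. PHGDH had no counts and was not tested. A gene counts as higher or lower here when its adjusted p is under 0.05. Among all 15640 tested genes 16.3% were lower, 13.3% higher and 29.6% either. With library totals as the only scaling, 60.6% of the genes past the threshold were higher, against 45.1%. The median log2 change was -0.24 over the 9 genes and -0.03 over all tested genes. In 6 of the 9 genes the groups did not overlap, and the same held for 64.6% of all tested genes.

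**Figure D1:**
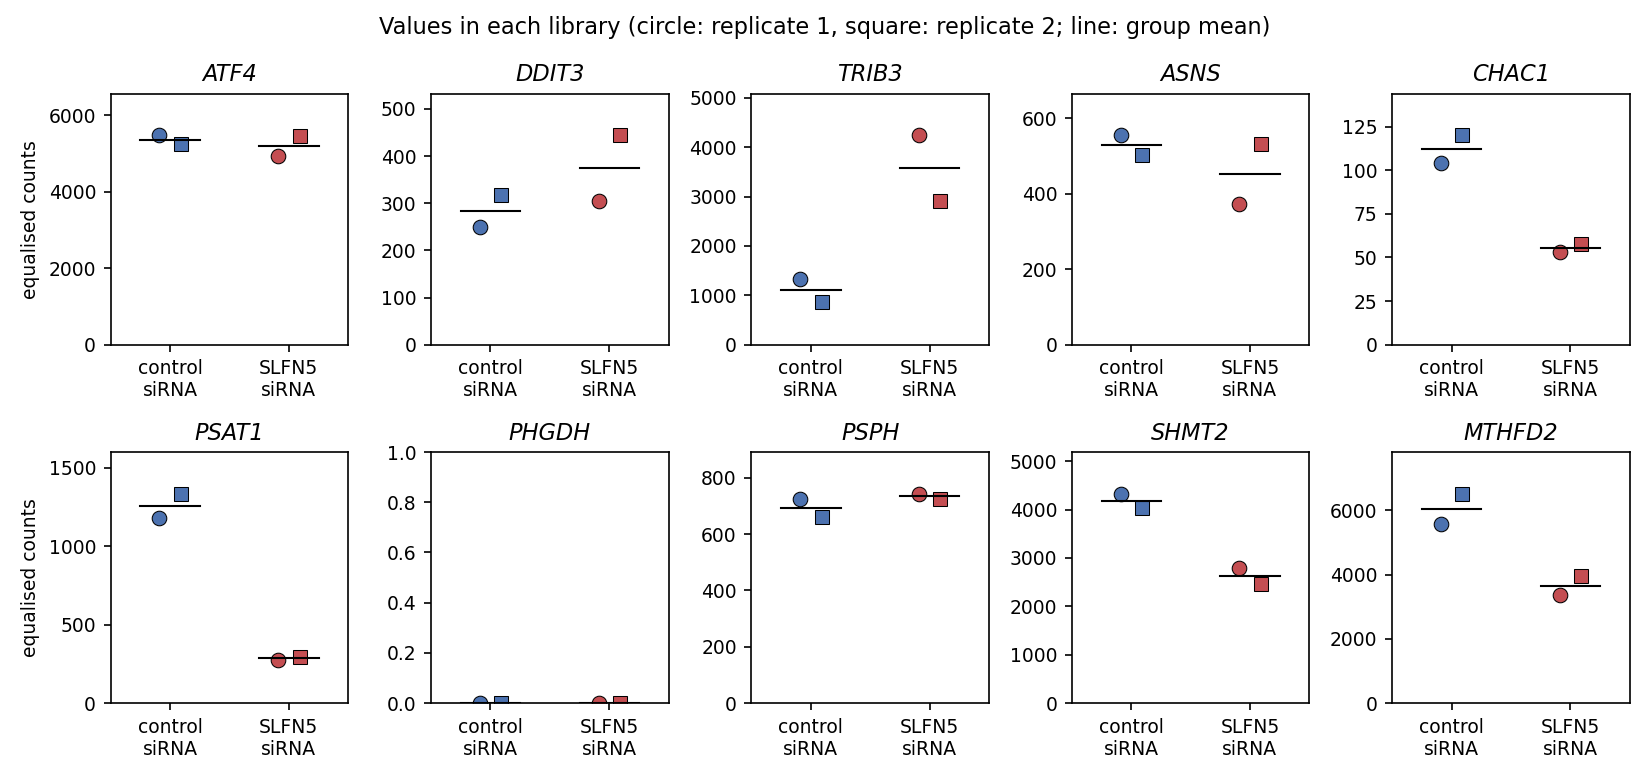
Equalised counts (vertical axes, each from 0) of the 10 genes in the 2 control siRNA libraries (blue) and the 2 SLFN5 siRNA libraries (red). Circles are replicate 1, squares replicate 2 and lines group means. PSAT1 sits at 1181 and 1334 in the controls and at 274 and 297 after SLFN5 siRNA, TRIB3 goes the other way, and PHGDH is at 0 throughout.

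ATF4 transcripts were abundant and were close together in all libraries. ATF4 (ENSG00000128272, chromosome 22), the transcription factor of the pathway, had 5477 and 5259 equalised counts in the controls and 4946 and 5473 after SLFN5 siRNA. The groups overlapped, with SLFN5 siRNA 1 the lowest library. The log2 change was -0.04 (SE 0.11, limma adjusted p = 0.797), with a 95% interval from -0.28 to 0.19, so a fall past 0.823 or a rise past 1.14 times the control level lies outside that interval. These values concern the transcript, and ATF4 protein was not measured. Processed pseudogenes of ATF4 took few counts. ATF4P3 and ATF4P4 passed the filter at control means of 14.4 and 36.1 and did not pass the test (log2 changes 0.48 and -0.65, limma adjusted p = 0.522 and 0.287).

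The stress output genes downstream of ATF4 moved apart. TRIB3 (ENSG00000101255, chromosome 20), a pseudokinase that binds ATF4 and AKT and feeds back on the response, stood at 1335 and 863 in the controls and at 4238 and 2919 after SLFN5 siRNA. Both SLFN5 siRNA libraries lay above both controls, and in each group replicate 1 was the higher. The mean went from 1099 ± 334 to 3579 ± 933 (SD, n = 2), 3.28-fold (log2 change 1.71, SE 0.20, limma adjusted p = 0.000142). Leaving out any 1 library leaves 1 library in its group, and gave log2 changes of 1.40 to 2.03. Without the trend in the variance the rise did not pass (limma adjusted p = 0.055, the highest over 16 alternatives). In all, 220 tested genes rose by more than TRIB3 on the log2 scale.

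CHAC1 (ENSG00000128965, chromosome 15), which cleaves glutathione and is a usual readout of ATF4 activity, went down. It had 104 and 120 equalised counts in the controls and 53.2 and 58.0 after SLFN5 siRNA, and the groups did not overlap. The log2 change was -0.99 (SE 0.27, limma adjusted p = 0.0169), or 0.504 of the control level. The gene was the least abundant tested one of the set, with 50 to 179 recovered counts per library. Without Control 2 the call was lost (log2 change -0.89, adjusted p = 0.148, against 0.00344 to 0.148 over 16 alternatives).

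DDIT3 (ENSG00000175197, chromosome 12) encodes CHOP, the factor of the pathway tied to cell death under prolonged stress. Its values were 249 and 317 in the controls and 305 and 444 after SLFN5 siRNA. SLFN5 siRNA 2 was the highest library, and SLFN5 siRNA 1 lay between the controls. The log2 change of 0.39 (SE 0.21, 95% interval -0.07 to 0.85) did not pass (limma adjusted p = 0.193). On leaving out SLFN5 siRNA 1 it passed, at a log2 change of 0.66 (adjusted p = 0.0447, against 0.0349 to 0.735 over 16 alternatives). The change was smaller, at 0.12 and 0.21, on leaving out SLFN5 siRNA 2 or Control 1 (adjusted p = 0.735 and 0.603). The DDIT3 value has a further limit. In the GENCODE 29 gene models (GRCh38) DDIT3 and the methionyl-tRNA synthetase gene MARS lie on opposite strands and share 982 bases. The kit named in the labels does not mark strand, and how shared reads were counted is not stated. MARS stood at 3799 and 3938 in the controls and at 2855 and 3222 after SLFN5 siRNA. Its log2 change was -0.35 (SE 0.11, limma adjusted p = 0.0342), and the call was lost on leaving out Control 1, Control 2 or SLFN5 siRNA 1 (adjusted p = 0.105, 0.198 and 0.156, against 0.00114 to 0.198 over 16 alternatives). The DDIT3 to MARS ratio, chosen after its values were seen, was 0.0655 and 0.0805 in the controls and 0.107 and 0.138 after SLFN5 siRNA.

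ASNS (ENSG00000070669, chromosome 7), which makes asparagine from aspartate and glutamine, did not pass. Per kilobase of exon it stood at 125 and 113 equalised counts in the controls and at 84 and 119 after SLFN5 siRNA. Only SLFN5 siRNA 1 was low, and SLFN5 siRNA 2 lay between the controls. The log2 change was -0.24 (SE 0.18, limma adjusted p = 0.348), with an interval from -0.64 to 0.15, and it was 0.01 without SLFN5 siRNA 1 and -0.50 without SLFN5 siRNA 2. Relative to ATF4 in the same library, ASNS was 0.101 and 0.0956 in the controls and 0.0757 and 0.0971 after SLFN5 siRNA, in units of equalised counts not divided by length. The TRIB3 to ATF4 ratio went from 0.244 and 0.164 to 0.857 and 0.533. The CHAC1 to ATF4 ratio went the other way, from 0.0189 and 0.0227 to 0.0108 and 0.0106. The ratio of DDIT3 to ATF4 was 0.0454 and 0.0603 in the controls and 0.0616 and 0.0812 after SLFN5 siRNA, and the groups were separated by a small margin. In these libraries, genes usually read as outputs of the same factor thus differed in direction, with TRIB3 higher and CHAC1 lower by the test.

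**Figure D2:**
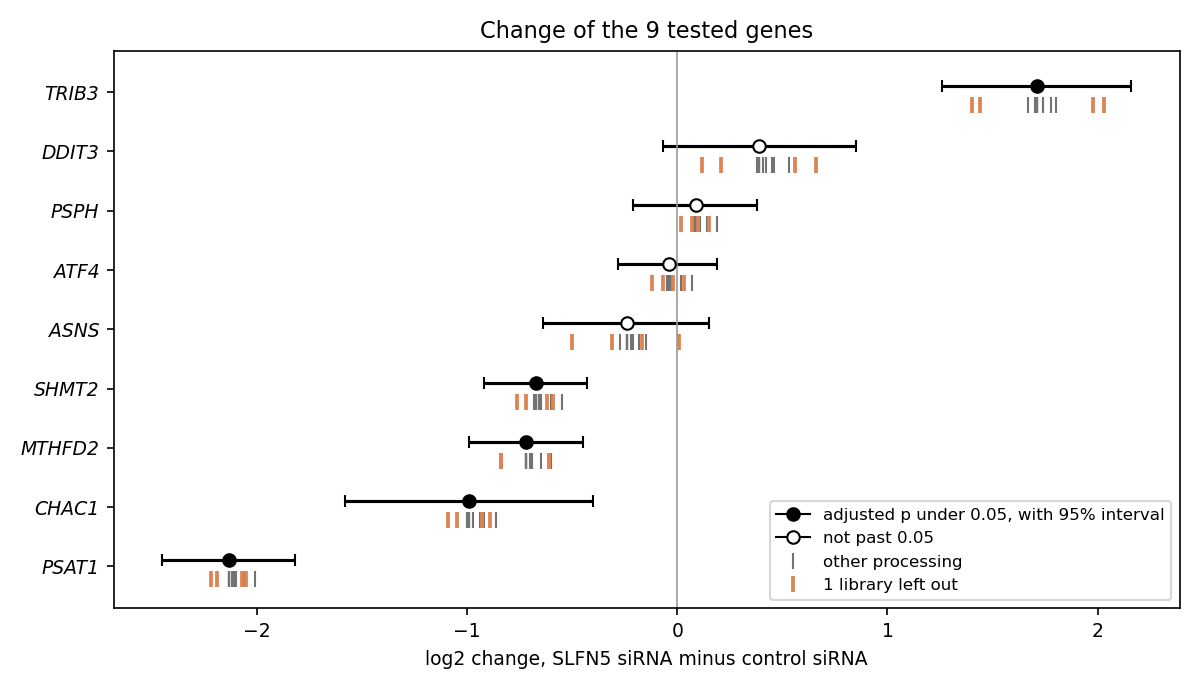
Log2 change (horizontal axis, SLFN5 siRNA minus control siRNA) of the 9 tested genes, with the 95% interval from limma. Filled points have an adjusted p under 0.05, grey ticks are the values under other processing and orange ticks those with 1 library left out. PSAT1 lies farthest below 0 at -2.13, TRIB3 farthest above at 1.71, and the interval of ATF4 spans -0.28 to 0.19.

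The serine synthesis pathway was uneven. PHGDH (ENSG00000092621, chromosome 1), the enzyme that opens the pathway by oxidising 3-phosphoglycerate, was listed at 0 in all 4 libraries. With 0 recovered counts, up to 3 counts per library are allowed, which is 9.4e-06% of the counts in Control 1 and 2.27e-05% in Control 2 (counting error only, since reads of a PCR library are not independent molecules). The limit holds for reads as the authors assigned them to genes, and whether reads of PHGDH were left unassigned was not tested. A value of 0 was not rare: of 19058 protein-coding gene IDs shared with GENCODE 29, 18.2% had no count in any library. None of the 14 genes of the 20S proteasome core, a set chosen after the PHGDH value was seen, was at 0. The planned ratios of PSAT1 and PSPH to PHGDH therefore have no value.

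PSAT1 (ENSG00000135069, chromosome 9), which converts phosphohydroxypyruvate to phosphoserine with glutamate as amino donor, had the largest change of the set. It stood at 1181 and 1334 equalised counts in the controls and at 274 and 297 after SLFN5 siRNA. Libraries of a group lay close together, and the groups were far apart. The mean fell from 1257 ± 108 to 286 ± 16.4 (SD, n = 2), to 0.228 of the control level (log2 change -2.13, SE 0.14, 95% interval -2.45 to -1.82, limma adjusted p = 5.96e-06). All 16 alternatives kept the call, with log2 changes of -2.22 to -2.01. The highest adjusted p was 0.042, in limma without the trend in the variance. Only 51 of the tested genes, or 0.326%, fell by more. PSAT1 pseudogenes held at most 17 recovered counts each over all libraries.

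PSPH (ENSG00000146733, chromosome 7), which releases serine from phosphoserine, did not follow. Its values were 724 and 662 in the controls and 743 and 726 after SLFN5 siRNA, so both SLFN5 siRNA libraries were above the controls by a margin smaller than the spread between the controls. The log2 change was 0.09 (SE 0.13, limma adjusted p = 0.683), with an interval from -0.21 to 0.38. The PSPH to PSAT1 ratio, chosen after its values were seen, was 0.613 and 0.496 in the controls and 2.71 and 2.44 after SLFN5 siRNA. Per kilobase of exon, PSAT1 was above PSPH in the controls (540 and 610 against 262 and 240) and below it after SLFN5 siRNA (125 and 136 against 269 and 263).

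The mitochondrial enzymes that use serine fell together. SHMT2 (ENSG00000182199, chromosome 12), which splits serine into glycine and a methylene group on folate, went from 4325 and 4043 to 2786 and 2470. MTHFD2 (ENSG00000065911, chromosome 2), which oxidises that folate, went from 5579 and 6517 to 3373 and 3953. In both genes the SLFN5 siRNA libraries lay below the controls. The log2 changes were -0.67 for SHMT2 (SE 0.11, limma adjusted p = 0.00116) and -0.72 for MTHFD2 (SE 0.12, limma adjusted p = 0.00123), or 0.627 and 0.606 of the control levels. Leaving out any 1 library, which leaves 1 library in its group, gave log2 changes of -0.76 to -0.59 for SHMT2 and -0.84 to -0.61 for MTHFD2. Both calls were lost without the trend in the variance (limma adjusted p = 0.0651 and 0.072, the highest over 16 alternatives, with lowest values of 3.4e-07 and 6.23e-08). The MTHFD2 to SHMT2 ratio was 1.29 and 1.61 in the controls and 1.21 and 1.6 after SLFN5 siRNA, so it varied more between the libraries of a group than between groups.

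Per kilobase of exon (union of GENCODE 29 exons, which may differ from the authors' models), ATF4 was the highest of the set in the controls, with a mean of 2135 equalised counts per kilobase. MTHFD2 (1242), SHMT2 (865), PSAT1 (575) and TRIB3 (320) followed, then PSPH (251), DDIT3 (216), ASNS (119) and CHAC1 (54.2). TRIB3 at 389 and 251 per kilobase overlapped PSPH at 262 and 240, and DDIT3 at 190 and 243 overlapped PSPH. The place of PSPH between TRIB3 and DDIT3 was thus within the spread, while both TRIB3 values lay above both DDIT3 values. After SLFN5 siRNA TRIB3 stood next below ATF4, at 1042 per kilobase against 752 for MTHFD2. Not divided by length, their means were 3579 and 3663, so the order of TRIB3 and MTHFD2 rests on the exon lengths used. PSAT1, at 131 per kilobase, came below PSPH at 266 and DDIT3 at 286 and above ASNS at 102.

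**Figure D3:**
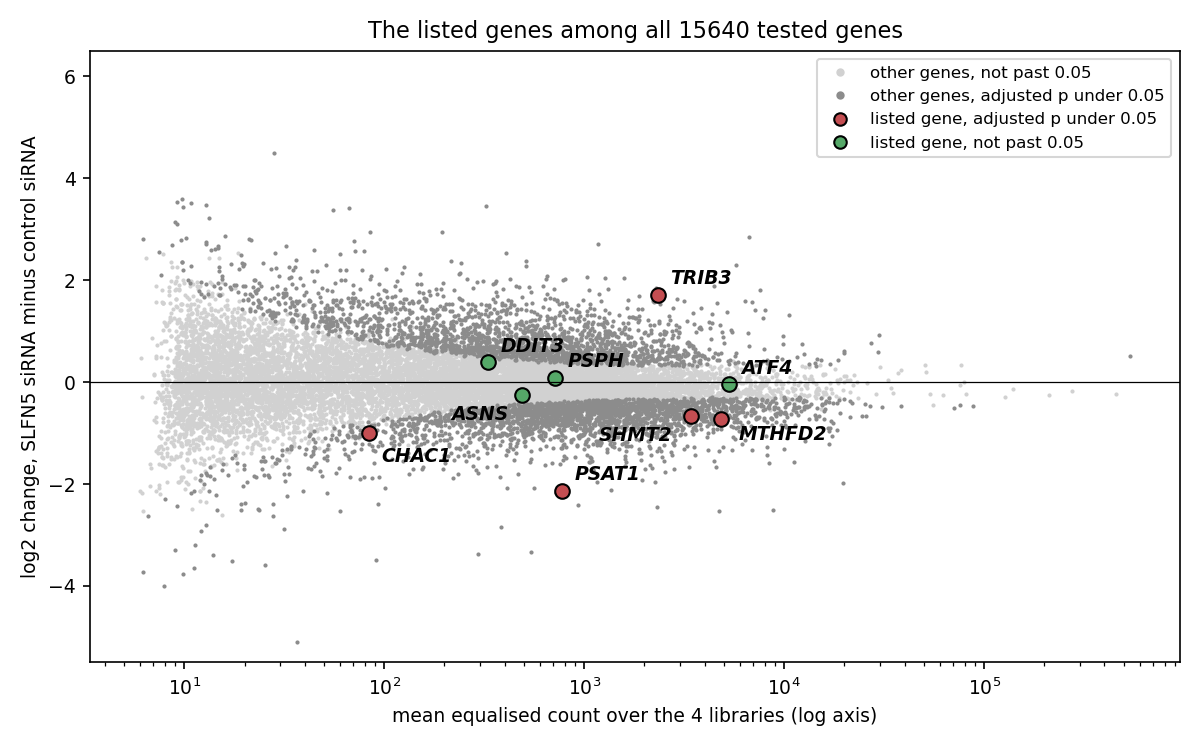
Log2 change (vertical axis) against the mean equalised count over the 4 libraries (horizontal log axis) for all 15640 tested genes. Large points are the 9 tested genes of the set, red with an adjusted p under 0.05 and green without. PSAT1 lies at -2.13 and TRIB3 at 1.71, SHMT2 and MTHFD2 lie side by side at -0.67 and -0.72, and ATF4 lies near 0.

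The other genes of the pathway were read from 12 lists of 121 genes, of which 117 were tested and 4 (FGF21, ALDH1L1, ALDH1L2 and SDS) were below the filter. After SLFN5 siRNA 14 of them were higher and 33 lower, and 70 did not reach the threshold. The 13.3% higher and 16.3% lower over all tested genes stand beside these counts and those of each list below. Without the trend in the variance 14 of the 47 calls were kept, those of PPP1R15B, DDIT4, ERO1L, GDF15, KLHL24, LONP1, TNFRSF10B, SLC7A11, ASS1, MTHFS, MTRR, SLC25A32, SFXN1 and GGCT. Upstream of ATF4, the list of eIF2 kinases, phosphatase subunits and the exchange factor had 2 higher and 5 lower of 15 (median log2 change -0.16). The inducible phosphatase subunit PPP1R15A, which is GADD34 and ends the response, rose from 565 and 672 to 1030 and 1178 (log2 change 0.84, SE 0.14). Its constitutive counterpart PPP1R15B fell from 2362 and 2595 to 1126 and 1172 (log2 change -1.11, SE 0.12). OMA1, a mitochondrial protease that relays stress to eIF2 kinases, rose by 0.98 on the log2 scale, and the eIF2 alpha subunit EIF2S1 and the exchange factor subunit EIF2B3 fell by 0.82 and 0.75. The other 2 lower genes, chosen after their values were seen, were EIF2B5 (log2 change -0.55) and the endoplasmic reticulum kinase EIF2AK3 (-0.48, lost on leaving out Control 1, adjusted p = 0.0987). The bZIP partners and cofactors ATF3, ATF5, CEBPB, CEBPG, NUPR1 and NFE2L2 gave 0 calls of 6 in limma, 0 with an unadjusted p under 0.05 and 0 in limma-voom with TMM scaling (median -0.05). On leaving out Control 1 the list gave 1 call. NUPR1 was near the filter, at 11.3 and 0.561 in the controls and 14.3 and 16.2 after SLFN5 siRNA.

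Other ATF4 targets outside amino acid handling changed in both directions. Of 11 tested, 6 were higher and 3 lower, with a median log2 change of 1.29. The mTOR regulator DDIT4 rose from 1779 and 1120 to 4642 and 4062 (log2 change 1.62), and the oxidoreductase ERO1L, which forms disulphides in the endoplasmic reticulum, from 562 and 656 to 1694 and 1958 (log2 change 1.58). The peptide gene ADM2 had 20.7 and 8.32 in the controls and 61.2 and 27.5 after SLFN5 siRNA, a log2 change of 1.56 (limma adjusted p = 0.0494). Its call was lost on leaving out Control 2 (0.95, adjusted p = 0.265) or SLFN5 siRNA 1 (1.0, adjusted p = 0.29), with a range of 0.00499 to 0.29 over 15 alternatives. The other 3 higher genes, chosen after their values were seen, were the stress cytokine GDF15 (log2 change 1.53), KLHL24 (1.5) and the mitochondrial protease LONP1 (1.29). The tRNA export factor XPOT, the death receptor TNFRSF10B and the lipoprotein receptor VLDLR fell by 0.92, 0.90 and 0.86 on the log2 scale.

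Amino acid transporters under ATF4 control were lower where they changed. Of 8, 3 were lower and 5 did not pass (median -0.31). The cystine importer SLC7A11 fell from 1003 and 1284 to 363 and 377 (log2 change -1.61). The leucine carrier SLC7A5 fell by 0.48 and its partner chain SLC3A2 by 0.47, the latter call being lost on leaving out Control 2 or SLFN5 siRNA 1 (adjusted p = 0.102 and 0.0584). The neutral amino acid carrier SLC1A4, which takes up serine, did not pass, at 1509 and 1451 against 1506 and 1731. Of 12 cytosolic tRNA synthetases 5 were lower and 7 did not pass (median -0.27). TARS fell by 0.69. The LARS call (-0.52) was lost on leaving out Control 2 or SLFN5 siRNA 1 (adjusted p = 0.074 and 0.0707), and that of EPRS (-0.37) on leaving out Control 1, Control 2 or SLFN5 siRNA 1 (adjusted p = 0.0537, 0.188 and 0.0992). The other 2, chosen after their values were seen, were MARS, given above, and YARS (-0.32), whose call was lost on leaving out Control 1, Control 2 or SLFN5 siRNA 1 (adjusted p = 0.177, 0.21 and 0.191). Enzymes of proline, alanine, cysteine and anaplerotic metabolism had 3 higher of 8 and 5 that did not pass (median 0.28). The arginine pathway enzyme ASS1 rose by 1.58 on the log2 scale from 37.8 and 28.3 to 120 and 83.0, and the mitochondrial enzyme PCK2 by 1.02 from 174 and 120 to 331 and 263. The call of the aminotransferase GOT1 (0.35) was lost with any library left out (adjusted p = 0.054 to 0.282).

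**Figure D4:**
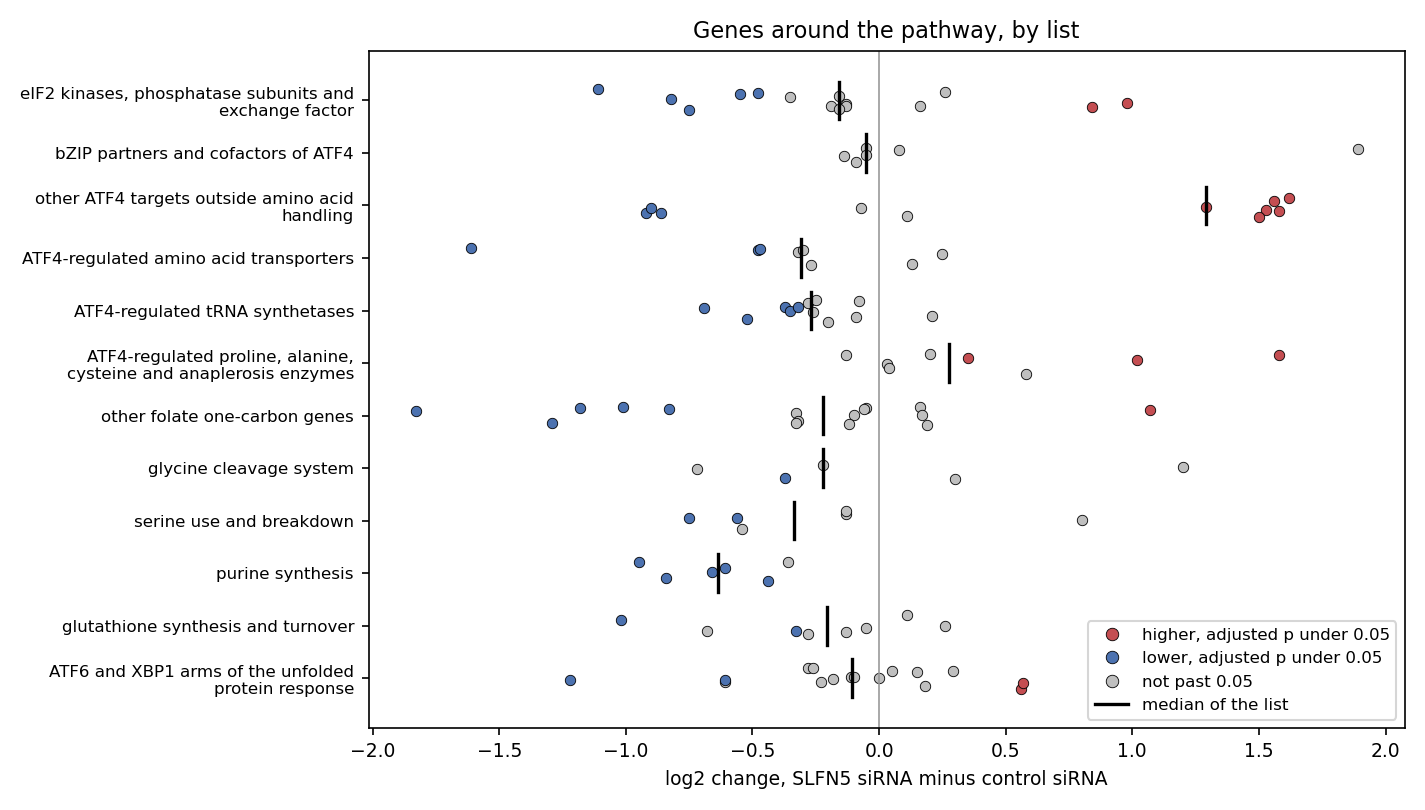
Log2 change (horizontal axis, SLFN5 siRNA minus control siRNA) of the 117 tested genes of the 12 pathway lists (rows), red for higher, blue for lower, grey for not passing an adjusted p of 0.05. Black bars are list medians, which run from -0.63 for purine synthesis to 1.29 for ATF4 targets outside amino acid handling.

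The genes around serine and folate were mostly lower where they changed. Among 16 tested folate genes other than SHMT2 and MTHFD2, 5 were lower, 1 was higher and 10 did not pass (median -0.22). The mitochondrial folate carrier SLC25A32 fell from 3230 and 3455 to 1311 and 1418 (log2 change -1.29, SE 0.11). The methionine synthase reductase MTRR fell by 1.18 on the log2 scale, and MTHFS, near the filter at 48.5 and 34.3 against 12.3 and 9.40, had a log2 change of -1.83 whose call was lost on leaving out Control 1 (adjusted p = 0.118). The mitochondrial serine importer SFXN1, from 4460 and 4932 to 2188 and 2471, and the folate carrier SLC19A1 fell by 1.01 and 0.83. Both were chosen after their values were seen. The cytosolic counterpart SHMT1 and the relative MTHFD2L did not pass, at log2 changes of 0.16 and -0.05. Nor did the mitochondrial enzyme MTHFD1L, at 1271 and 1340 against 1008 and 1084 (log2 change -0.32, limma adjusted p = 0.0693), which was named after its values were seen.

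Of the 6 enzymes of purine synthesis, a pathway with folate-dependent steps, 5 were lower and 1, ATIC, did not pass (median -0.63; log2 change of ATIC -0.36, limma adjusted p = 0.0778). PPAT, which catalyses the committed step, fell from 2986 and 3308 to 1457 and 1813 (log2 change -0.95), PAICS by 0.84 and PFAS by 0.66. GART (-0.61) and ADSL (-0.44), chosen after their values were seen, completed the 5, and the ADSL call was lost on leaving out Control 2 (adjusted p = 0.108). In serine use and breakdown 2 of 6 were lower and 4 did not pass (median -0.34). They were the phosphatidylserine synthase PTDSS1 (log2 change -0.75) and the sphingolipid enzyme SPTLC1 (-0.56). Over all tested genes 16.3% were lower, which stands beside the counts of this list and the next. In the glycine cleavage system 1 of 5 was lower (median -0.22), DLD with a log2 change of -0.37, whose call was lost on leaving out Control 1, Control 2 or SLFN5 siRNA 1 (adjusted p = 0.11, 0.163 and 0.0953).

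In glutathione synthesis and turnover, the pathway on which CHAC1 acts, 2 of 8 were lower and 6 did not pass (median -0.20). Over all tested genes 16.3% were lower. GGCT, which acts on gamma-glutamyl dipeptides, fell from 1230 and 1451 to 626 and 691 (log2 change -1.02). GSR, the glutathione reductase, had a log2 change of -0.33 whose call was lost with any library left out (adjusted p = 0.0686 to 0.289). CHAC2, the relative of CHAC1, had 205 and 255 in the controls and 110 and 184 after SLFN5 siRNA, and did not pass (log2 change -0.68, limma adjusted p = 0.0668). The ATF6 and XBP1 arms of the unfolded protein response, which respond to stress in the endoplasmic reticulum beside the ATF4 arm, had 2 higher and 2 lower of 16, with 12 not passing (median -0.10). CRELD2 and EDEM1 rose by 0.57 and 0.56, both calls being lost on leaving out Control 1 (adjusted p = 0.0604 and 0.0637). The cochaperone DNAJB9 fell by 1.22, and the DNAJB11 call (-0.61) was lost on leaving out Control 2 or SLFN5 siRNA 1 (adjusted p = 0.0573 and 0.0586). The chaperone HSPA5 did not pass, at 5787 and 8597 in the controls and 5870 and 8481 after SLFN5 siRNA.

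The genes with the pattern nearest to PSAT1 over the 4 libraries, among 10501 genes of sufficient level, were EIF5A2, JAZF1 and PRKCE, with Euclidean distances, over log2 values less the control mean, of 0.13, 0.158 and 0.204 on the log2 scale and log2 changes of -2.12, -2.07 and -2.18. Those nearest to TRIB3 were ZNF395, SEMA6A and ANXA4, at distances of 0.131, 0.133 and 0.181 and log2 changes of 1.63, 1.66 and 1.6. The points are 4 libraries that PSAT1, TRIB3 and these genes share.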

How the data were processed

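Per the labels, poly(A)-selected RNA of 4 libraries was read as single ends. The submitters' processing notes name edgeR and hg19. Which aligner, counter and gene annotation were used is not given in the sources used here. For each gene, the deposited signal has no stated unit. Its values have the form of the quantile-adjusted counts, scaled to a common library size, that the authors' tool edgeR returns, and they are called equalised counts. Inverting that adjustment returned whole counts for 100% of 230636 values (tolerance 1e-06). The main test was limma 3.58.1 (R 4.3.3) on log2(value + 1), with group as the only term and a variance trend on intensity, over genes of at least 10 in 2 libraries, and Benjamini-Hochberg adjustment over all of them. The fit and the inversion were tested on simulated data. The recovered counts gave the depth and the scaling alternatives (limma-voom and thinning), of which limma-voom with TMM called 2095 genes higher and 2585 lower.

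Named were all listed genes, SLFN5, MARS and any related pseudogene passing the filter, from each pathway list up to 3 higher and 3 lower genes of largest change past the threshold, and for PSAT1 and TRIB3 the 3 tested genes (mean of at least 100) nearest in Euclidean distance. NUPR1, SLC1A4, SHMT1, MTHFD2L, ATIC, CHAC2, HSPA5, MANF and the genes so described in the text were chosen after their values were seen. The genes, lists and tests were chosen with earlier results of these data known. Over genes, chi-square per degree of freedom was 18.0 between the control libraries and 17.8 between the SLFN5 siRNA libraries. The values of some genes in the lists are not reported here.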

Additional observations from a re-analysis of the deposited data

How the results depend on the processing

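Without the trend in the variance, 0 of the 9 genes were higher (limma) and 2 lower, over all genes 672 higher and 510 lower, and the lists gave 1 (eIF2 factors), 1 (transporters), 0 (tRNA synthetases), 1 (proline, alanine and cysteine enzymes), 0 (glycine cleavage), 0 (serine use), 0 (purine synthesis), 1 (glutathione) and 0 (ATF6 and XBP1 arms) calls. The tRNA synthetase calls were 3 with the median change set to 0, 2 with upper quartile scaling and 3 with library totals, the glutathione calls 1 under each of these and after thinning to the shallowest library, and the glycine cleavage calls 0 with upper quartile scaling and library totals. The cause was not tested. Library totals alone moved the median of all genes by 0.12 on the log2 scale. With 1 library left out, counts ran from 1 to 2 (genes of the set higher), 3 to 4 (lower), 1346 to 1767 and 1588 to 2341 (all genes higher and lower), 6 to 8 (eIF2 factors), 0 to 1 (bZIP partners), 2 to 4 (transporters), 1 to 5 (tRNA synthetases), 2 to 3 (proline, alanine and cysteine enzymes), 0 to 1 (glycine cleavage), 1 to 2 (glutathione) and 2 to 5 (ATF6 and XBP1 arms). For the set, SLFN5 and the list genes past the threshold, no change with an adjusted p under 0.05 changed sign under an alternative. The alternatives that gave a value were 15 for ADM2 and MTHFS and 16 for the other tested genes. ATF4 and ASNS, which did not pass, changed sign, with log2 changes of -0.12 to 0.07 and -0.50 to 0.01. Replicate numbers are shared between groups and the titles share S371 and S374, but no label says what they mark. Deviations of same-numbered libraries correlated at 0.369 over 10541 genes. With the replicate number as a block, 2 genes of the set were higher, DDIT3 being added (adjusted p = 0.0349), 3008 and 3695 of all genes were higher and lower, and the lists gave 6 (transporters), 9 (tRNA synthetases), 5 (proline, alanine and cysteine enzymes), 5 (glutathione) and 8 (ATF6 and XBP1 arms) calls. Few counts limit CHAC1 (50 in its lowest library), ASS1 (19), MTHFS (8) and ADM2 (5).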

Other observations

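Some endoplasmic reticulum genes, chosen after their values were seen, were higher in replicate 2 than in replicate 1 of both groups. HSPA5 was 1.49 times as high in Control 2 as in Control 1 and 1.44 times as high in SLFN5 siRNA 2 as in SLFN5 siRNA 1. The secreted factor MANF had the same order (1.25 and 1.44 times), as had DNAJB9 (1.36 and 1.5 times), whose fall after SLFN5 siRNA was larger, and DDIT3 (1.27 and 1.46 times). TRIB3 had the opposite order, at 0.646 and 0.689 times, while the fold after SLFN5 siRNA was 3.17 in the libraries numbered 1 and 3.38 in those numbered 2. For PSAT1 these folds were 0.232 and 0.223, for MTHFD2 0.605 and 0.607, and for ASNS 0.675 and 1.06.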
